A study of Mus musculus with 60 samples.

Results

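Lithium was compared with vehicle in the prefrontal cortex of female mice heterozygous for the K228E allele of Tbr1. The comparison takes in the 5 female heterozygous (HT) libraries labelled lithium and the 5 labelled vehicle, which are 10 of the 60 libraries in the series, and members were chosen by these labels alone. All 10 animals were Tbr1+/K228E on the C57BL/6J strain and were taken at postnatal day 25. The lithium group received the drug through the mother's milk for 3 weeks, from postnatal day 3 to day 24, and the vehicle group received vehicle over the same days. The lithium dose is not given in the sources used here. The series holds 12 groups of 5 libraries, by genotype (HT or wild type, WT), treatment (lithium, fluoxetine or vehicle) and sex. Males were left out, because the vehicle males form a cluster of their own in which cluster and treatment cannot be told apart. Litters, dams and batches are not named in the labels. Pups of 1 litter would share a dam's milk, so p-values measure the spread between these samples alone and are too small if groups hold littermates.

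Tbr1 is a T-box transcription factor of glutamatergic projection neurons, strongest in layer 6, and heterozygous mutations of the human gene are found in autism spectrum disorder. Lithium is a mood stabiliser that competes with magnesium and inhibits inositol monophosphatases, other phosphatases of that structural family and the kinases GSK-3 alpha and beta. Through GSK-3 it is known to act on beta-catenin signalling and on the circadian clock, and in cultured cells it has been linked to the chaperones of the endoplasmic reticulum (ER).

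The 10 libraries held between 24693257 and 36515331 reads, and values are reads per gene scaled by each library's size factor, called normalised read counts here. Each library was distinct from its group mates, with the smallest chi-square per degree of freedom at 2.94 over 120 pairs within groups of the series. Tbr1 had 4344, 3403, 5241, 4172 and 4390 normalised read counts in the HT lithium libraries and 1167, 3168, 4304, 4980 and 4323 in the HT vehicle libraries. HT vehicle replicate 1 had the lowest Tbr1 count of the 10, and the groups overlapped. The Tbr1 log2 fold change was 0.41 ± 0.28 (SE, n = 5 in each group; adjusted p = 0.60 by limma with Benjamini-Hochberg adjustment). A gene-level count does not tell the K228E allele from the other, so it does not check the genotype labels.

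HT vehicle replicate 1 stood apart from the other 9 libraries. On the first principal component of the 10 libraries, which held 43.2% of the variance, it lay at -81.0 and the others between -25.0 and 40.6. Markers of olfactory bulb projection and periglomerular neurons, tissue that adjoins a frontal dissection, averaged 8.45, 9.72, 6.73, 5.97 and 5.88 on the log2 scale in the HT lithium libraries and 10.95, 9.28, 8.56, 5.13 and 8.73 in the HT vehicle libraries. The lowest and the highest of these bulb averages both belonged to vehicle libraries. Of the 7 bulb markers, 0 had an unadjusted p below 0.05 by limma, against 8.05% of all genes. All 7 had a log2 fold change below 0, where 47.3% of all genes did. So did all 14 markers of migrating neuroblasts and bulb granule cells (median -0.53), 0 of them with an unadjusted p below 0.05 by limma. The median log2 fold change of the 7 was -1.22. With 1 library left out it ran from -2.16 without HT vehicle replicate 4 to -0.55 without HT vehicle replicate 1. Without HT vehicle replicate 4, 6 bulb markers were lower at that threshold, where 2895 of all genes passed it in either direction. Without HT lithium replicate 2, 1 was, where 2577 of all genes passed. Striatal medium spiny neuron markers averaged 10.66 in HT lithium replicate 1 and between 8.51 and 9.07 in the other lithium libraries, against 8.56 to 9.49 in the HT vehicle libraries. In bulk tissue, fewer cells of a type and less RNA per cell cannot be told apart.

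**Figure D1:**
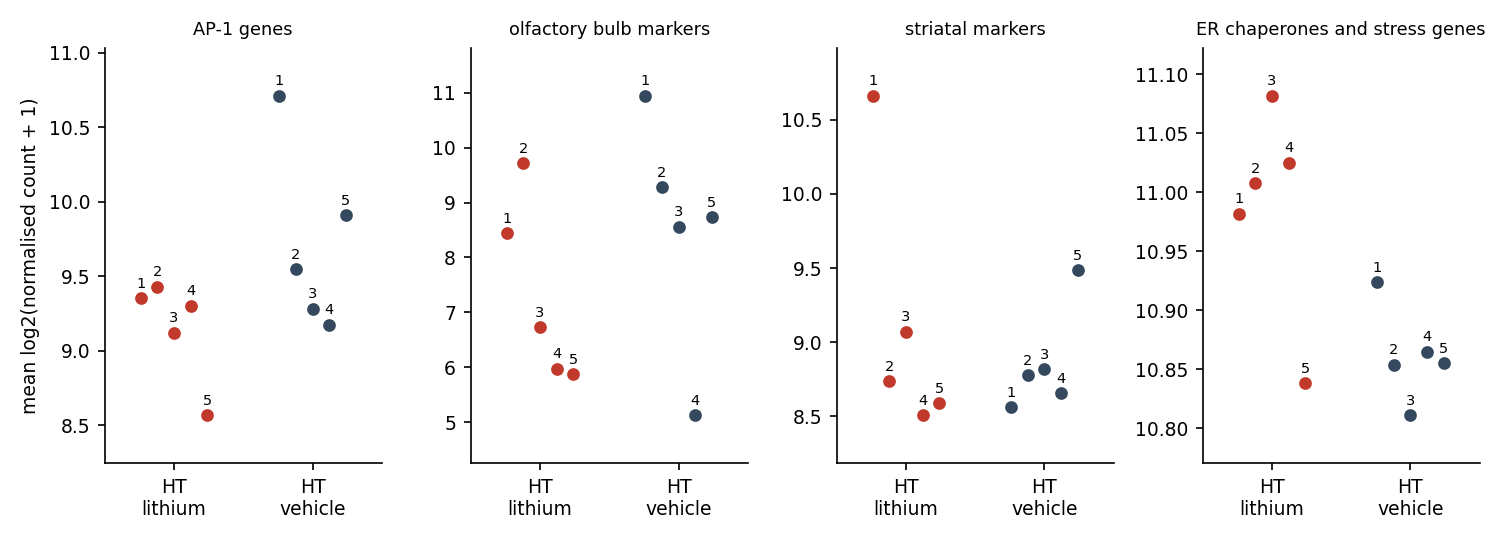
Mean log2(normalised count + 1) of 4 gene lists in each HT lithium and HT vehicle library, with replicate numbers beside the points; each panel has its own vertical scale, which does not start at 0. Vehicle replicate 1 is the highest library for the AP-1 list and the bulb list, lithium replicate 1 is the highest for the striatal list at 10.66, and 4 of the 5 lithium libraries lie above the vehicle libraries for the ER list.

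The question of the comparison was which genes differ in the cortex of Tbr1 heterozygotes raised on lithium. Of 17335 genes tested in a fit over the 30 female libraries, 1 was called at an adjusted p below 0.05 (0.00577% of those tested). That gene was Castor2, which was higher under lithium. At an unadjusted p below 0.05 there were 1395 genes (8.05%), of which 781 were higher (4.51%) and 614 lower (3.54%) in the lithium libraries. That number was 2577 without lithium replicate 2, 865 without lithium replicate 5, 826 without vehicle replicate 1 and 2895 without vehicle replicate 4. In a fit on the 10 libraries alone, 553 genes passed that unadjusted threshold (3.19%) and none was called. The lithium and vehicle libraries did not overlap for 90 genes (0.519%), 47 of them higher (0.271%) and 43 lower (0.248%) under lithium. The median log2 fold change of all genes was 0.0092.

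The size of change that the 10 libraries could show was limited. The median standard error of a log2 fold change was 0.109. For 72.2% of genes the 95% confidence interval lay within a 1.5-fold change in either direction, and for 90.3% it lay within a 2-fold change. On simulated counts of 17217 genes, known changes were put into genes with a mean of at least 50 only. The same test recovered 34% of 1.25-fold changes, 82% of 1.5-fold changes and 100% of 2-fold changes, with 3.07% of calls false. These shares do not cover genes with a mean under 50, whose median standard error was 0.295, against 0.088 for the others. More genes were changed in the simulation than were called in the libraries, which eases the adjusted threshold, so the shares may be too high for this comparison. The simulation drew each gene apart, so differences in dissection that move many genes together were not part of it.

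**Figure D2:**
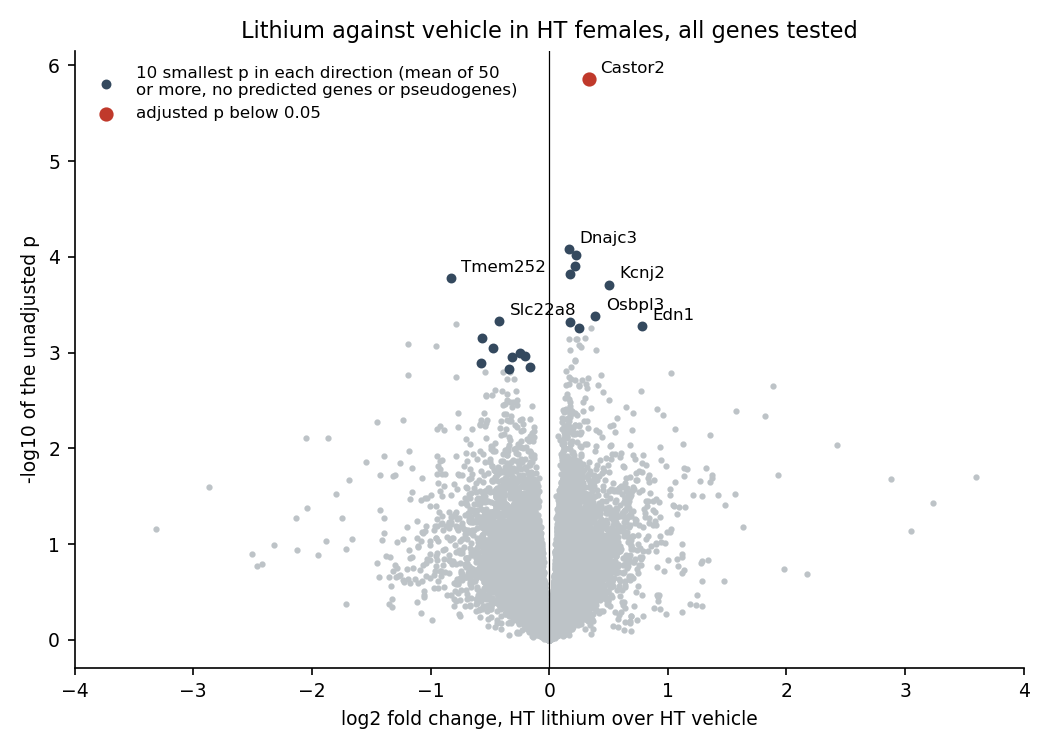
Log2 fold change of HT lithium over HT vehicle (horizontal) against -log10 of the unadjusted p (vertical) for the 17335 genes tested. Castor2, the only gene with an adjusted p below 0.05, is drawn in red at a log2 fold change of 0.34, and dark points are the 10 genes with the smallest p in each direction among genes with a mean of at least 50 that are neither predicted genes nor pseudogenes.

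Castor2 encodes a CASTOR family protein. Its family binds GATOR2, a complex of the nutrient-sensing arm upstream of the growth kinase complex mTORC1, and CASTOR1 of the same family is the arginine sensor in human cells. The gene (ENSMUSG00000015944) lies at chr5:134099711-134144343 on the plus strand of GRCm38. Castor2 had 5688, 5773, 6360, 6334 and 6659 normalised read counts in the HT lithium libraries, against 4572, 4573, 4837, 5253 and 5130 in the HT vehicle libraries. Every lithium library lay above every vehicle library. The log2 fold change was 0.34 ± 0.06 (SE, n = 5 in each group; 95% interval 0.23 to 0.45), with an adjusted p of 0.0239 by limma with Benjamini-Hochberg adjustment.

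The Castor2 call depended on the libraries and the model of the fit, while its log2 fold change lay between 0.29 and 0.37 over the 23 alternatives run. With 1 of the 10 libraries left out in turn, the log2 fold change lay between 0.31 and 0.37 and the adjusted p by limma between 0.0140 and 0.174. The call was lost without lithium replicate 3 (adjusted p = 0.141), 4 (0.139) or 5 (0.173), and without vehicle replicate 1 (0.0751), 2 (0.174) or 3 (0.103). In the fit on the 10 libraries alone the log2 fold change was the same and the adjusted p was 0.826. With the same 30 libraries, the adjusted p was 0.0949 with library quality weights and 0.0687 with the replicate number as a block. Castor2 had the smallest p of all genes in the fit and in each of those alternatives, and was called in 14 of them.

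Castor2 was also higher under lithium in WT females, without passing the test there. It had 5458, 5842, 5638, 5132 and 6383 normalised read counts in the WT lithium libraries and 5382, 5174, 4793, 5015 and 5039 in the WT vehicle libraries. These groups overlapped in range, and the log2 fold change was 0.16 ± 0.06 (SE, n = 5 in each group; unadjusted p = 0.0070, adjusted p = 0.41 by limma). The difference between the genotypes in this response was 0.18 ± 0.08 on the log2 scale (unadjusted p = 0.031, adjusted p of 1 by limma). Under fluoxetine, a serotonin reuptake inhibitor, HT females had 4500, 4408, 4872, 4786 and 4511 Castor2 counts, with a log2 fold change of -0.08 against the same vehicle libraries. The related gene Castor1 was expressed at a far lower count, at 74.8, 74.1, 61.8, 75.6 and 58.2 in the HT lithium libraries and 109, 81.4, 95.7, 80.5 and 67.3 in the HT vehicle libraries. The 2 groups overlapped for Castor1, whose log2 fold change was -0.32 ± 0.17 (SE; unadjusted p = 0.076, adjusted p = 0.59 by limma).

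**Figure D3:**
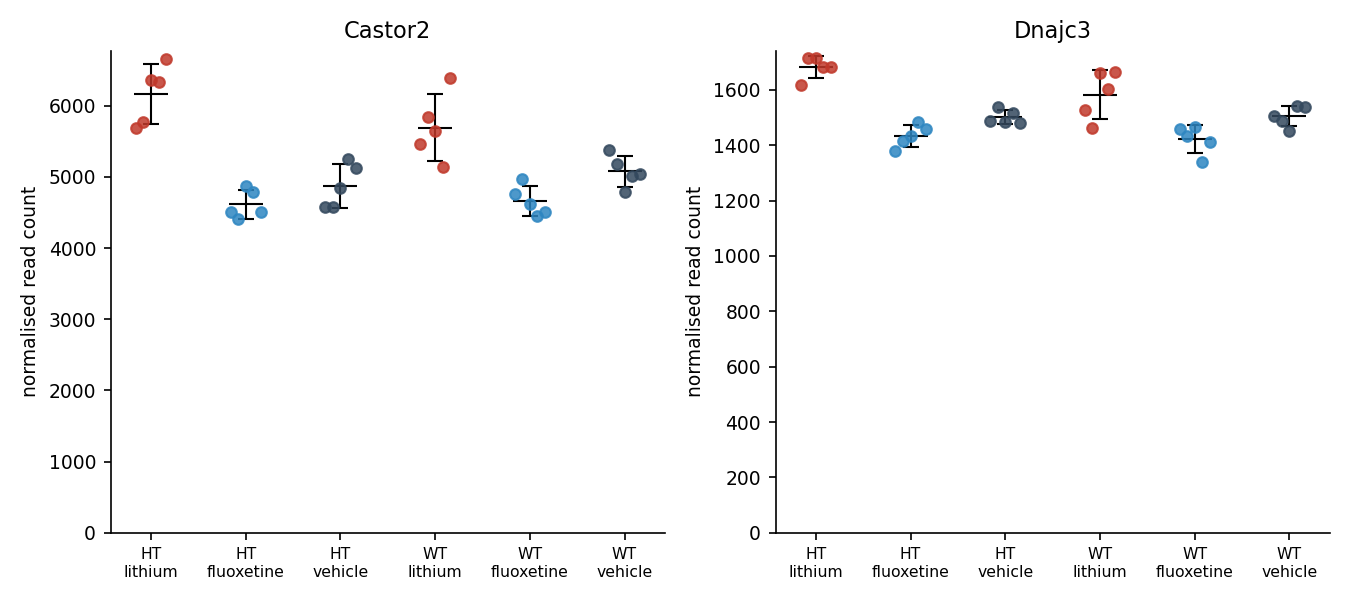
Normalised read counts of Castor2 and Dnajc3 in each female library by genotype and treatment; points are libraries (n = 5 per group), and the black bars are the group mean and SD. The HT lithium libraries of Castor2 lie between 5688 and 6659 and those of Dnajc3 between 1619 and 1716, above all HT vehicle libraries of the same gene, the highest of which are 5253 and 1540.

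The promoter of Castor2 is shown because it is the gene that passed the test. It covers 250 bases before to 50 bases after the start of transcription, at chr5:134099498-134099797 on the plus strand of GRCm38.p6, from RefSeq. Neither strand of it held the ER stress element (CCAAT, 9 bases of any kind and CCACG), the E-box (CACGTG) or the cyclic AMP response element (TGACGTCA), which are known elements of ER stress, clock and activity-dependent genes.
Castor2: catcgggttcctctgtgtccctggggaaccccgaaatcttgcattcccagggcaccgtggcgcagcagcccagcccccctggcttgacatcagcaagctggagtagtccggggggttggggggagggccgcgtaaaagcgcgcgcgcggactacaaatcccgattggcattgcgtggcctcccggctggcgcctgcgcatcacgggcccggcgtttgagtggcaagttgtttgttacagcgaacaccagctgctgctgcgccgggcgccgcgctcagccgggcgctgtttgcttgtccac

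Beyond Castor2 no gene passed the test, and the genes with the smallest p are given by their values. These were taken from genes with a mean of at least 50 over the 10 libraries, with predicted genes and pseudogenes left out. Castor2 was 1 of the 10 higher genes with the smallest p, and the other 9 follow. Dnajc3, an ER co-chaperone that also restrains the stress kinase PERK, had 1619, 1715, 1716, 1681 and 1684 normalised read counts in the HT lithium libraries and 1489, 1540, 1484, 1515 and 1481 in the HT vehicle libraries. The groups did not overlap, and the log2 fold change was 0.16 ± 0.04 (SE, n = 5 in each group; adjusted p = 0.48 by limma). Txndc16, a thioredoxin domain protein of the ER lumen, had a log2 fold change of 0.17 and overlapping groups. Kcnj2, an inwardly rectifying potassium channel, had 548, 531, 548, 428 and 683 counts under lithium and 296, 423, 432, 419 and 362 under vehicle, with a log2 fold change of 0.50. Its groups overlapped through lithium replicate 4 alone. Lin7a, a synaptic scaffold protein, was at 0.18 and Osbpl3, a lipid-binding protein of membrane contact sites, at 0.39.

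Stk4, the kinase MST1 of the Hippo pathway, had 1286, 1371, 1445, 1473 and 1393 counts in the HT lithium libraries and 1147, 1168, 1172, 1317 and 1153 in the HT vehicle libraries. Only vehicle replicate 4 reached into the lithium range of Stk4 (log2 fold change 0.23, adjusted p = 0.48 by limma). Etv6, an ETS family repressor, had groups that did not overlap and a log2 fold change of 0.25. Zfp322a, a zinc finger gene, was at 0.22. Edn1, which encodes the vasoconstrictor peptide endothelin-1, had the largest log2 fold change of the 10 at 0.78 ± 0.20 (SE), from 84.4, 66.0, 84.1, 102 and 104 counts under lithium and 46.5, 46.4, 45.5, 47.9 and 68.4 under vehicle. Vehicle replicate 5 alone overlapped the lithium range of Edn1.

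The 10 lower genes with the smallest p come next. Slc22a8, an organic anion transporter of the blood-brain barrier and choroid plexus, had 773, 814, 694, 821 and 627 normalised read counts in the HT lithium libraries and 1021, 1086, 935, 957 and 974 in the HT vehicle libraries. Those groups did not overlap (log2 fold change -0.42 ± 0.11, adjusted p = 0.59 by limma). Klf2, a shear-stress responsive transcription factor of endothelium, was at -0.47 and Adm, which encodes the vasodilator adrenomedullin, at -0.58, both with overlapping groups. Tmem252 had the largest difference of the lower genes, with 78.8, 75.0, 56.6, 48.0 and 46.1 counts under lithium and 100, 129, 90.2, 141 and 83.3 under vehicle. Its groups did not overlap, and its log2 fold change was -0.83 ± 0.19 (SE; adjusted p = 0.48 by limma), beside -0.82 in WT females.

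The remaining lower genes were Lemd1 (log2 fold change -0.57), Fam136a (-0.25), the RNA polymerase III subunit gene Polr3b (-0.20), the zinc finger genes Zfp59 (-0.32) and Zscan18 (-0.16) and the DNA repair helicase gene Mcm9 (-0.34). Zfp59 and Zscan18 had groups that did not overlap. Zscan18 had 441, 442, 446, 446 and 451 counts in the HT lithium libraries, against 525, 464, 495, 483 and 532 in the HT vehicle libraries. The lithium libraries of Zscan18 spanned a narrower range than the vehicle libraries, and its log2 fold change in WT females was -0.03.

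Markers of vessel cells were read beside Slc22a8, Klf2 and Adm. All 10 endothelial and mural markers had log2 fold changes below 0 (median -0.11), where 47.3% of all genes did, and none was called. Pdgfrb, a pericyte receptor, had 898, 896, 880, 882 and 654 counts in the HT lithium libraries and 904, 929, 901, 1000 and 997 in the HT vehicle libraries, which did not overlap (log2 fold change -0.18, unadjusted p = 0.018). Acta2, the smooth muscle actin, was at -0.35 (unadjusted p = 0.019), and these were the 2 vessel markers with an unadjusted p below 0.05, against 3.54% of all genes lower at that threshold. That count was 4 without lithium replicate 2, where 2577 of all genes passed the threshold in either direction. It was 1 without lithium replicate 4 or vehicle replicate 3 and 0 without lithium replicate 5. All 10 meningeal markers were also below 0, with a median of -0.28 that was -0.43 without vehicle replicate 4 and -0.15 without lithium replicate 5, the lowest and highest with 1 library left out. Of these, 2 were lower at an unadjusted p below 0.05 by limma, against 3.54% of all genes. That number was 7 without vehicle replicate 4 and 6 without lithium replicate 2. In those fits 2895 and 2577 of all genes passed the threshold in either direction, against 1395 with no library left out. The meningeal number was 1 without lithium replicate 3 or 4 or vehicle replicate 2, and 0 without lithium replicate 1 or 5 or vehicle replicate 1, 3 or 5. The part of vessel and meningeal content in the values of Slc22a8, Klf2, Adm and Edn1 was not tested.

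Chaperones, folding enzymes and stress factors of the ER lay to one side of 0. The chaperones and enzymes bind or oxidise newly made secretory proteins, and their genes are raised together by the unfolded protein response through the factors ATF6, XBP1 and ATF4. All 17 measured members had a log2 fold change above 0, where 52.7% of all genes did, and none was called. At an unadjusted p below 0.05, 8 of 17 were higher and 0 lower, against 4.51% and 3.54% of all genes. The median log2 fold change was 0.11, beside 0.0092 over all genes. The members share libraries and are known to be raised together, so they are not independent of each other. The bulb, vessel and meningeal lists also lay wholly to one side of 0, below it.

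The 8 ER genes at that threshold were Dnajc3, Pdia3, Hsp90b1, Pdia6, Hspa5, Calr, Manf and Sdf2l1. Pdia3, a disulphide isomerase for glycoproteins, had 4877, 5413, 5011, 4906 and 4653 normalised read counts in the HT lithium libraries and 4376, 4533, 4520, 4481 and 4548 in the HT vehicle libraries. The groups did not overlap for Pdia3 (log2 fold change 0.14 ± 0.04, SE; unadjusted p = 0.0015). Hsp90b1, the ER form of HSP90, had 8207, 8501, 8942, 7871 and 7747 counts under lithium and 7648, 7551, 7644, 7696 and 7540 under vehicle, also without overlap and with a log2 fold change of 0.11. Together with Dnajc3, these made 3 of 17 ER genes whose groups did not overlap, where 0.271% of all genes were higher without overlap.

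Pdia6, a further disulphide isomerase, had 3041, 3303, 3541, 3382 and 2734 counts in the HT lithium libraries and 2669, 2967, 2667, 2817 and 2623 in the HT vehicle libraries (log2 fold change 0.22, unadjusted p = 0.0012). Lithium replicate 5 was the low library for Pdia6 and lay inside the vehicle range. Hspa5, the chaperone BiP, had 7777, 8649, 8896, 8106 and 6840 counts under lithium and 7798, 6900, 6714, 7209 and 7080 under vehicle (log2 fold change 0.17, unadjusted p = 0.0099). Lithium replicate 5 was the low lithium library for Hspa5 too. Calr, a calcium-binding chaperone, was at 0.18, Manf, a secreted factor held in the ER, at 0.17, and Sdf2l1, a partner of BiP, at 0.27. Of the regulators, Xbp1 was at 0.10 (unadjusted p = 0.068), Atf4 at 0.08 (unadjusted p = 0.21) and Ddit3, the stress factor CHOP, at 0.01 (unadjusted p = 0.93), all by limma.

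The ER counts moved with the libraries in the fit. Leaving out 1 library in turn gave 6 to 10 members higher at an unadjusted p below 0.05 and 0 lower, and the other 13 alternatives gave 4 to 12 higher. It was 4 in the fit on the 10 libraries alone, 5 with quantile normalization and 12 with library quality weights. Averaged over the 17 genes, the log2 level was 10.84 to 11.08 in the lithium libraries and 10.81 to 10.92 in the vehicle libraries. In WT females the median log2 fold change of the list under lithium was 0.09, with 4 of 17 higher at an unadjusted p below 0.05, against 4.83% of all genes. Against the same HT vehicle libraries, fluoxetine gave a median of -0.04 and Hspa5 a log2 fold change of -0.23.

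**Figure D4:**
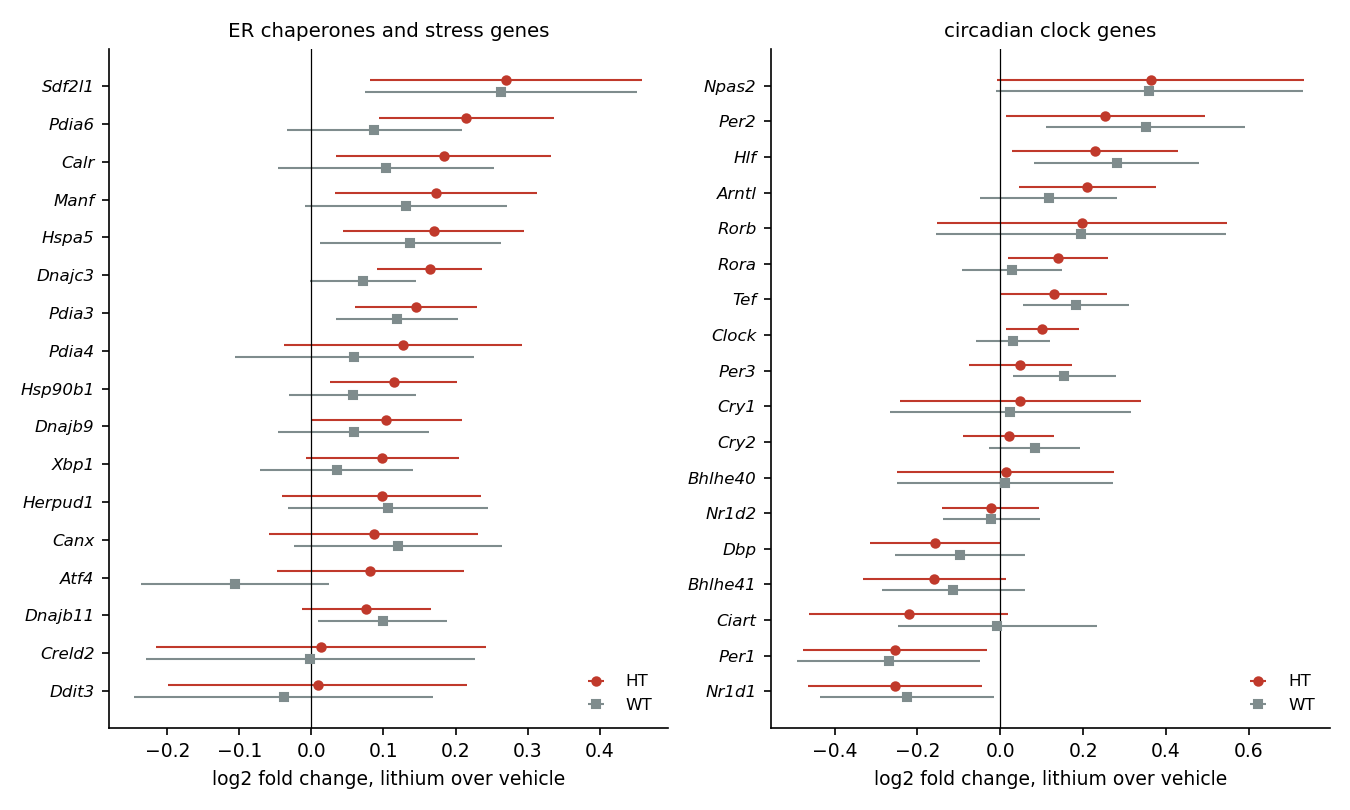
Log2 fold change of lithium over vehicle, with 95% confidence intervals, for 17 ER genes (left) and 18 circadian clock genes (right) in HT females (red circles) and WT females (grey squares). All 17 ER genes lie above 0 in HT females, from 0.27 for Sdf2l1 to 0.01 for Ddit3, and clock genes lie on both sides, from 0.36 for Npas2 to -0.25 for Nr1d1 and Per1; none was called.

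Promoters of ER genes are shown because these genes share a known control element. The ER stress element, searched on both strands as CCAAT, 9 bases of any kind and CCACG in windows of 250 bases before to 50 bases after the RefSeq start, was present in 7 of the 16 ER genes with a window and in 37 of 27025 genes in all (0.137%). It was present in 5 of the 8 ER genes higher at an unadjusted p below 0.05 and in 2 of the other 9, of which 1 had no window. Pdia3, whose groups did not overlap, held no match. The windows of Dnajc3, Pdia6 and Hspa5, picked after matches and values were seen, lie on the plus strand of GRCm38.p6 at chr14:118937682-118937981, chr12:17266339-17266638 and chr2:34771840-34772139. The element, in capitals, starts 105 bases before the start of transcription in Dnajc3, 98 before it in Pdia6 and 65 before it in Hspa5. A match describes the letters and is not evidence of binding in these samples. The element is known from ER stress genes, so its share in this list is not a result of these samples. Whether the element goes with the p-values was not tested.
Dnajc3: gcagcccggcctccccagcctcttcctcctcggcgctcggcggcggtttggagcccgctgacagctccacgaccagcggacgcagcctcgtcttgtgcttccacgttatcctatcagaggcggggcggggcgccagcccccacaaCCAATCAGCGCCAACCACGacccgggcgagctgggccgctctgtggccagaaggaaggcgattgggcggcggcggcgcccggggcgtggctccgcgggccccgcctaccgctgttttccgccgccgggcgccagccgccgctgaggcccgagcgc
Pdia6: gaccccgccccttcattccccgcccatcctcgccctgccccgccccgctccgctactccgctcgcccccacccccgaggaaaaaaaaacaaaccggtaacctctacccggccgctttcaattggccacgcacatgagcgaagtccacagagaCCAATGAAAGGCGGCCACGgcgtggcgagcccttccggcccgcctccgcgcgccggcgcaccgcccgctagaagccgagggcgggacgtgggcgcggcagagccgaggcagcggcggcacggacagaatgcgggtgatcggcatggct
Hspa5: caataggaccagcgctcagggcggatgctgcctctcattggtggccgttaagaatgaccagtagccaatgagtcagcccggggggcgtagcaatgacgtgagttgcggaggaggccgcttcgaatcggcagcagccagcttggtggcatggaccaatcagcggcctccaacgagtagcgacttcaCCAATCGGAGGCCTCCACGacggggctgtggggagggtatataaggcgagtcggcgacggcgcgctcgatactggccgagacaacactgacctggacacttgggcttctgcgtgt

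No gene of the known lithium targets and their pathways was called. Of 8 genes for enzymes that lithium inhibits, Impa1, an inositol monophosphatase, had 1704, 1760, 1905, 1720 and 1843 normalised read counts in the HT lithium libraries and 1790, 1417, 1773, 1505 and 1605 in the HT vehicle libraries. The groups overlapped for Impa1 (log2 fold change 0.15 ± 0.05, SE; unadjusted p = 0.0074, adjusted p = 0.59 by limma). The other 7 did not reach an unadjusted p of 0.05, among them Gsk3b at 0.12 and Gsk3a at 0.10. That made 1 of 8 higher and 0 lower, against 4.51% and 3.54% of all genes. The count of 1 was 2 without lithium replicate 1 or vehicle replicate 4 or 5. Of 18 genes of inositol supply and phosphoinositide turnover, 0 reached an unadjusted p of 0.05 in either direction, against 8.05% of all genes. Without vehicle replicate 4, 3 were higher, where 2895 of all genes passed that threshold in either direction. The inositol transporter genes Slc5a3 and Slc2a13 were at 0.17 and 0.35.

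Of 20 Wnt pathway genes (receptors, ligands and feedback targets), 3 were lower and 0 higher at an unadjusted p below 0.05 by limma, against 3.54% and 4.51% of all genes. These were Sfrp1, a secreted Wnt antagonist, at -0.34, Nkd1, an intracellular feedback inhibitor, at -0.20, and Lef1, a partner of beta-catenin on DNA, at -0.29. With 1 library left out the count of lower Wnt genes was never 3. It was 1 without vehicle replicate 2, 4 without lithium replicate 2 or vehicle replicate 4, and 2 without any other library. Without vehicle replicate 4 there were also 3 higher ones, where 2895 of all genes passed that threshold in either direction. Axin2, the feedback gene most used as a readout of beta-catenin signalling, had 819, 780, 885, 907 and 861 counts in the HT lithium libraries and 752, 909, 763, 842 and 757 in the HT vehicle libraries. The groups overlapped, and the Axin2 log2 fold change was 0.08 ± 0.08 (SE; unadjusted p = 0.30 by limma). The 95% interval of that difference ran from -0.08 to 0.25. In WT females Nkd1 was at -0.41, and the genotypes differed there by 0.21 (unadjusted p = 0.083).

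Clock genes had log2 fold changes on both sides of 0, and none was called. Their products form a loop in which CLOCK and BMAL1 (Arntl) drive the Per and Cry repressors and Nr1d1, which in turn represses Arntl. Of 18 clock genes, 6 were higher and 3 lower at an unadjusted p below 0.05, against 4.51% and 3.54% of all genes. The higher ones included Arntl at a log2 fold change of 0.21, Per2 at 0.25 and Hlf, a PAR bZIP factor, at 0.23. The lower ones were Nr1d1 at -0.25, Per1 at -0.25 and Dbp, also a PAR bZIP factor, at -0.16. Nr1d1 had 2565, 2367, 2770, 2795 and 2621 counts in the HT lithium libraries and 2555, 3185, 2833, 3890 and 3323 in the HT vehicle libraries. Vehicle replicate 1 lay inside the lithium range for Nr1d1, and the other 4 vehicle libraries lay above it.

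The count of higher clock genes fell to 0 without HT vehicle replicate 1 and to 2 without HT lithium replicate 4 or 5, and was 4 without lithium replicate 3 or vehicle replicate 3. The count of lower ones was 5 without vehicle replicate 3 and 1 without vehicle replicate 4 or 5. Arntl shows the part of a single library, with 821, 773, 805, 871 and 857 counts under lithium and 538, 811, 741, 797 and 714 under vehicle, where vehicle replicate 1 is the low one. WT females had a like-signed difference for Per1 (-0.27), Nr1d1 (-0.22) and Per2 (0.35). The hour of dissection is not in the labels, so time of day and treatment cannot be told apart. An E-box (CACGTG) was present in the promoter windows of 5 of the 16 clock genes with a window (Per1, Cry1, Tef, Ciart and Bhlhe41), where 8.09% of genes held one. The cyclic AMP response element (TGACGTCA) was present in 0 of the 7 AP-1 windows, 0 of the 16 ER windows and 1 of the 16 clock windows (Hlf), where 2.03% of genes held one.

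Activity-dependent transcription factors of the AP-1 family lay below 0, with 1 vehicle library far above the rest. Atf3, which injury and stress also induce, had 33.8, 48.8, 18.0, 19.2 and 9.89 normalised read counts in the HT lithium libraries and 413, 60.6, 39.2, 19.6 and 70.5 in the HT vehicle libraries. Vehicle replicate 1 was the high library, and the groups overlapped (log2 fold change -1.54 ± 0.59, unadjusted p = 0.014). Fosb was at -0.68, Fosl2 at -0.70 and Junb at -0.45, which made 4 of 7 AP-1 genes lower at an unadjusted p below 0.05 and 0 higher, against 3.54% and 4.51% of all genes. Without HT vehicle replicate 1 the lower count was 0, and without lithium replicate 5 or vehicle replicate 5 it was 1. Fos itself had 835, 644, 776, 957 and 405 counts under lithium and 1493, 925, 591, 806 and 1205 under vehicle (-0.46, unadjusted p = 0.092). In WT females all 7 AP-1 genes were lower under lithium at an unadjusted p below 0.05 by limma, against 5.27% of all genes. Their median log2 fold change was -1.01 in WT females, beside -0.46 in HT females. With 1 library left out the HT median lay between -0.63 and -0.31. None of the 7 differed between genotypes at that threshold, against 1.95% of all genes. The median difference between genotypes was 0.31, and with so low a share a count of 0 does not show like responses. Bulb markers had a median log2 fold change of -1.50 in WT females, beside -1.22 in HT females. The part of bulb content in the AP-1 values was not tested.

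Of 21 other activity-dependent genes, 4 were lower and 1 higher at an unadjusted p below 0.05, against 3.54% and 4.51% of all genes. The lower ones were Ier2 (-0.58), Apold1 (-0.78), Klf4 (-0.27) and Cebpd (-0.44), and the higher one was Homer1. It encodes a postsynaptic scaffold with a short activity-induced form, and it had 5329, 6380, 7389, 7254 and 7329 counts in the HT lithium libraries and 5107, 5803, 4783, 5802 and 5352 in the HT vehicle libraries. Lithium replicate 1 alone lay inside the vehicle range of Homer1 (log2 fold change 0.32 ± 0.11, SE; unadjusted p = 0.0052). The count of lower genes was 8 without vehicle replicate 3, and 1 without vehicle replicate 1 or lithium replicate 5. In WT females 12 of the 21 were lower at that threshold, against 5.27% of all genes. Their median was -0.54, beside -0.27 in HT females (-0.40 to -0.18 with 1 library left out). Of the 21, 0 differed between genotypes at an unadjusted p below 0.05 by limma, against 1.95% of all genes. The median difference was 0.19, and here too a count of 0 does not show like responses.

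Bdnf, the neurotrophin, had 732, 717, 1088, 1209 and 1076 counts in the HT lithium libraries and 333, 953, 734, 950 and 745 in the HT vehicle libraries. The groups overlapped, with vehicle replicate 1 the lowest library, and the log2 fold change was 0.43 ± 0.22 (SE; unadjusted p = 0.055 by limma). Synapse genes had small log2 fold changes. Of 21 excitatory postsynaptic genes 17 were above 0 (median 0.16), and of 23 presynaptic release genes 20 were (median 0.14), against 52.7% of all genes. In each list 1 gene was higher at an unadjusted p below 0.05, against 4.51% of all genes. Syn2, a synaptic vesicle protein and the presynaptic one, had 11723 counts in vehicle replicate 1 and 17150 to 21460 in the other 9 libraries. Vehicle replicate 1 was also the library with the most bulb signal, and the part of bulb content in the synapse values was not tested.

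Of the 13 protein genes of mitochondrial DNA, 12 were above 0, against 52.7% of all genes, and 4 were higher at an unadjusted p below 0.05, against 4.51%. The steadiest was mt-Atp8, an ATP synthase subunit, with 15322, 12993, 16527, 14817 and 15234 counts in the HT lithium libraries and 10383, 13576, 12826, 13667 and 11867 in the HT vehicle libraries (log2 fold change 0.27 ± 0.07, SE; adjusted p = 0.59 by limma). The groups overlapped through lithium replicate 2. mt-Co3 had 52374, 48244, 10604, 22185 and 73517 counts under lithium and 39097, 4377, 35247, 8745 and 4883 under vehicle. Both groups of mt-Co3 spread widely, and its log2 fold change of 1.48 had a standard error of 0.68. Some adjoining mitochondrial genes overlap, though mt-Atp6 and mt-Co3 share position 8607 alone. Mitochondrial genes also have close copies in the nuclear genome, so how reads were shared out among them is uncertain. The count of 4 fell to 1 without lithium replicate 5 or vehicle replicate 5 and to 2 without lithium replicate 1 or 2 or vehicle replicate 1, 2 or 4. Mitochondrial genes held 7.72% of the reads of lithium replicate 5, against 4.82% to 6.12% in the other HT lithium and HT vehicle libraries. Of 18 cholesterol synthesis genes 0 reached an unadjusted p below 0.05, against 8.05% of all genes.

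Whether lithium acted differently in the 2 genotypes was tested by the interaction, the HT lithium difference minus the WT lithium difference. No gene was called by limma or by edgeR, DESeq2 on the recovered reads called 1 (Gdf1, with a fitted log2 difference of -24.33 that is not a usable size), and 338 genes had an unadjusted p below 0.05 (1.95%; 0.842% with a higher and 1.11% with a lower response in HT). Under the same conditions on mean and gene type, the 5 genes with the smallest p were Mt2, Slc16a9, Paqr5, Kctd7 and Pthlh. Mt2, a metallothionein that binds zinc and copper and is induced by metals and glucocorticoids, had 1329, 1560, 1186, 1558 and 1461 normalised read counts in the HT lithium libraries and 1670, 1829, 1993, 1713 and 1700 in the HT vehicle libraries, without overlap. In WT females Mt2 had 2239, 2006, 1703, 1837 and 1713 counts under lithium and 1442, 1856, 1771, 1179 and 1461 under vehicle, with overlap. The Mt2 log2 fold changes were -0.33 in HT and 0.31 in WT females, which differed by -0.64 ± 0.15 (SE; unadjusted p = 0.00014, adjusted p of 1 by limma).

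For the other 4, the HT differences were small or overlapped. Slc16a9, a carnitine and monocarboxylate family transporter, was at -0.38 in HT females and 0.33 in WT females. Paqr5, a membrane progesterone receptor, was at -0.12 in HT and 0.70 in WT, Pthlh, the parathyroid hormone-like peptide, at -0.03 in HT and 0.70 in WT, and Kctd7 at 0.04 in HT and -0.28 in WT. Paqr5 had 86.8, 127, 80.6, 101 and 107 counts in the HT lithium libraries, against 87.6, 105, 128, 132 and 92.9 in the HT vehicle libraries. It had 115, 120, 130, 118 and 126 counts in the WT lithium libraries, against 94.4, 100, 55.2, 67.6 and 64.9 in the WT vehicle libraries. The WT vehicle libraries were the low group of the 4.

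Genes induced by glucocorticoids or FOXO factors were read next, a pattern noticed after the values were seen. Of 16 such genes, 6 differed between genotypes in their lithium response at an unadjusted p below 0.05, all lower in HT, against 1.11% of all genes, and 4 to 7 did so when 1 library was left out. They were Mt2, Mt1 (a second metallothionein), Fkbp5 (a co-chaperone of the glucocorticoid receptor), Tsc22d3 (the protein GILZ), Sult1a1 (a sulphotransferase) and Plin4 (a lipid droplet coat protein). Fkbp5 had 1067, 1146, 985, 898 and 1150 counts in the HT lithium libraries and 1477, 998, 1366, 897 and 934 in the HT vehicle libraries, with overlap (log2 fold change -0.09). It had 1429, 1245, 1431, 1479 and 1446 counts in the WT lithium libraries and 1047, 1246, 1176, 828 and 990 in the WT vehicle libraries, where only the highest vehicle library reached the lowest lithium one (log2 fold change 0.42). The genotypes differed for Fkbp5 by -0.51 (unadjusted p = 0.0078, adjusted p of 1 by limma).

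Within HT females the same list had 1 gene higher and 3 lower at an unadjusted p below 0.05, against 4.51% and 3.54% of all genes. The higher one was Zbtb16, a glucocorticoid-induced zinc finger factor, with 1062, 1125, 1438, 1369 and 1425 counts in the HT lithium libraries and 600, 962, 1125, 1209 and 919 in the HT vehicle libraries (log2 fold change 0.44 ± 0.15, SE; adjusted p = 0.59 by limma). Its groups overlapped, and in WT females it was at 0.68. The lower ones were Mt2, Depp1, a FOXO target, at -0.52, and Per1. Without vehicle replicate 4 there were 2 higher and 1 lower. No corticosterone level or handling record is in the labels.

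**Figure D5:**
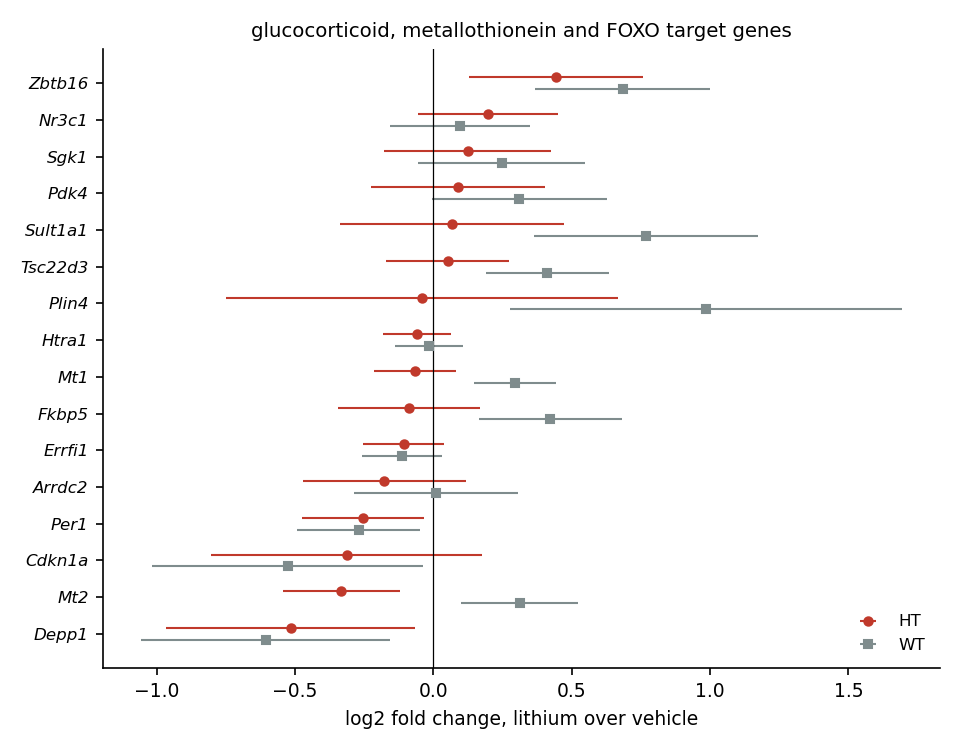
Log2 fold change of lithium over vehicle, with 95% confidence intervals, for 16 glucocorticoid, metallothionein and FOXO target genes in HT females (red circles) and WT females (grey squares). Mt2 lies at -0.33 in HT and 0.31 in WT females, and Fkbp5, Tsc22d3, Sult1a1, Plin4 and Mt1 lie near 0 in HT females and between 0.30 and 0.98 in WT females.

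The other drug comparisons were fitted in the same way. Lithium in WT females gave 0 called genes by limma (smallest adjusted p 0.119; 32 without WT lithium replicate 3) and 1750 at an unadjusted p below 0.05 (10.1%), and edgeR called 0 and DESeq2 39. Fluoxetine in HT females, against the same vehicle libraries, gave 0 called by limma (smallest adjusted p 0.230) and 3569 at that threshold (20.6%). Of the 7 bulb markers, 7 were lower at that threshold under fluoxetine in HT females, with a median log2 fold change of -3.22. Under lithium in WT females 0 were lower, with a median of -1.50. The part of bulb content in these gene counts was not tested. Lithium in HT males gave 6541 called genes (37.7%), where the vehicle cluster and treatment cannot be told apart. Castor2 was at 0.23 in that male comparison, Dnajc3 at -0.24, Pdia3 at -0.22, Hsp90b1 at -0.23 and Mt2 at 0.38, on the log2 scale.

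Of the 31 gene lists of pathways, cell types and tissues read in this comparison, none held a called member. Cortical layer, interneuron, astrocyte and microglia marker averages overlapped between the groups, with lithium libraries at 11.28 to 11.63 and vehicle libraries at 10.51 to 11.64 for upper layer neurons and at 8.80 to 9.74 and 9.10 to 9.68 for deep layer and subplate neurons. The layer 6 marker Ntsr1 had 297, 212, 287, 241 and 148 counts in the HT lithium libraries and 302, 249, 345, 298 and 307 in the HT vehicle libraries. Lithium replicate 5 was the lowest library for Ntsr1, and the groups overlapped.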

How the data were processed

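Prefrontal cortex RNA was sequenced after TruSeq Stranded mRNA preparation, per the labels. The authors' deposited table gives a signal for every gene in each library, namely its reads scaled by that library's size factor. The submitters' processing notes list Salmon 0.11.2, R 3.6.0, DESeq2 1.19.11 and GRCm38 without saying what each did. Of all values, 100% were whole multiples of the smallest value above 0 of their column (tolerance 1e-06), which gave the reads used by edgeR 4.0.16 and DESeq2 1.42.0 as alternatives.

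Genes at 10 or more in at least 5 female libraries were kept, and log2(value + 1) was tested two-sidedly with limma 3.58.1 (R 4.3.3, mean-variance trend), 1 mean per group, 30 female libraries, 24 residual degrees of freedom. Fold changes on this scale understate those of low genes. The male comparison was fitted over all 60 libraries. P-values were adjusted by Benjamini-Hochberg over all genes tested and called at 0.05. Intervals cover the spread between libraries only. The unit was not raw counts, so limma was used rather than a count test. The test was checked on simulated data.

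Named genes were Tbr1, the 10 genes with the smallest p in each direction (mean of at least 50, no predicted genes or pseudogenes), the 5 with the smallest interaction p and for each list at most the 4 members of smallest p. Other members are named where a list count is explained, and these were chosen after their values were seen. Of the genes that this rule names, 1 is not reported here. Members and lists were chosen with earlier results of these data known. List counts were read beside those of all genes, with no list test. Alternatives changed the pseudocount, filter, scaling, covariates, tool or libraries in the fit, 1 at a time. Of 18088 identifiers, 18077 matched a symbol. Promoter windows and gene positions are from RefSeq (GRCm38.p6) and GENCODE (GRCm38). Same-numbered libraries of the 2 groups correlated at 0.24, -0.03, 0.24, 0.25 and -0.09, so numbers were not taken as pairs.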

Additional observations from a re-analysis of the deposited data

Results flagged for a closer look

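In 15 of the 162 gene or list values tested in the HT lithium and HT vehicle groups, 1 library lay far from the other 4 of its group, and chance flags about 1 in 20 groups. In the lithium group, replicate 2 had the high value of Aqp4 (4188, the others 2899 to 3104) and of Acta2 (583, the others 335 to 371) and the low value of Birc5 (17.2, the others 26.6 to 30). Lithium replicate 5 had the low value of Pdgfrb (654, the others 880 to 898), and lithium replicate 1 the high mean log2 of the striatal list (10.66, the others 8.51 to 9.07).

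In the vehicle group, replicate 1 had the high values of Polr3b (666, the others 508 to 553), Atf3 (413, the others 19.6 to 70.5) and Fosl2 (5057, the others 932 to 2078). Vehicle replicate 1 also had the low value of Syn2 (11720, the others 17440 to 19610) and of the mean log2 of the inositol list (11.16, the others 11.37 to 11.45). Replicate 2 had the low mean log2 of the lithium-inhibited enzyme list (10.26, the others 10.35 to 10.37). Replicate 3 had the high value of Slc16a9 (164, the others 116 to 125), replicate 4 that of Stk4 (1317, the others 1147 to 1172), and replicate 5 those of Edn1 (68.4, the others 45.5 to 47.9) and of the striatal mean (9.49, the others 8.56 to 8.82).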

How the results depend on the processing

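The count of genes called in HT females, 1 as reported, was 0 in the fit on the 10 libraries alone, 0 with library quality weights, 3 in the fit over all 60 libraries (Castor2, Stk4 and Zfp322a), 3 with the striatal and choroid plexus averages as covariates (Castor2, Stk4 and Dnajc3) and 2 by DESeq2 on recovered reads (Castor2 and Dnajc3). With the replicate number as a block it was 0 (Castor2 adjusted p 0.0687); same-numbered libraries did not correlate throughout, so the block does not pair them. Leaving out 1 library in turn gave 0 to 1 called genes in HT females, 0 to 32 in WT females (32 without WT lithium replicate 3) and 0 for the interaction. In WT females, 0 as reported, the count was 1 over all 60 libraries (Nkd1), 2405 with quality weights and 39 by DESeq2, and the interaction count, also 0, was 1 by DESeq2. The log2 fold change of Pthlh in HT females, -0.033 as reported, turned to 0.026 with quantile normalization and lay between -0.130 and 0.035 with 1 library left out. The causes were not tested. Other pseudocounts, filters, quantile normalization, edgeR and a bulb covariate left the HT count at 1. The number of genes at an unadjusted p below 0.05 by limma, 1395 as reported, moved more. It was 825 with the bulb covariate and 2986 with the striatal and choroid plexus covariates. Of 1554 values of 68 named genes over these alternatives, 1535 kept direction and side of the threshold. Most of these genes were chosen for a small p in this fit, the alternatives reuse its libraries, and all but Castor2 were uncalled from the start. That number is therefore no measure of how steady the calls are. The 9 values that lost a call were all of Castor2, the only called gene, which was called in 14 of the 23 alternatives. The median standard error was 0.295 for the 3638 genes with a mean under 50 and 0.088 for the 13697 others.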
